A study of Rattus norvegicus with 6 samples.

Results

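The genes described here are 10 known transcriptional targets of the tumour suppressor p53, several of which hold back growth: Cdkn1a, Mdm2, Ccng1, Bax, Gdf15, Sesn2, Btg2, Gadd45a, Eda2r and Phlda3. They were taken by symbol from a table of 19616 rat genes, each had 1 row there, and all 10 were among the 14864 genes tested, which had a mean of at least 0.1 FPKM (fragments scaled for the length of the transcript and the size of the library) over the rats. Eda2r passed that filter through the FL rats, since its mean in the CL rats was 0.0633 FPKM.

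p53 is a transcription factor that is held at a low level by Mdm2 and is stabilised by DNA damage and other stress. Its targets stop the cell cycle, repair DNA, start apoptosis or adjust metabolism, and Mdm2, itself a target, closes a negative feedback loop. In the liver p53 is known for its response to toxic injury and for restraining the division of hepatocytes, and several of its targets also answer to other stress pathways.

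RNA of whole liver depleted of ribosomal RNA was sequenced from 3 male SD rats of the FL group and 3 of the CL group, with 1 library per rat. Over 5 weeks the FL rats received CCl4, a solvent toxic to hepatocytes, in olive oil by 2 intraperitoneal injections per week. Each dose was 2 mL per kg of body weight. Oil without CCl4, in a matched volume, was given to the CL rats. The study held 15 FL and 10 CL rats, and neither the age of the rats nor how the sequenced ones were picked is given in the sources used here. The rats are the replicates, 3 per group. The p-values set the difference between the groups against the spread between rats. For each gene limma, the program used, draws that spread towards the spread of genes of similar level.

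The liver label held in every library, as Alb, the gene of serum albumin, stood at 33392.03 (CL5), 31431.05 (CL6) and 31991.75 FPKM (CL7) in controls and at 24148.61 (FL2), 25052.10 (FL5) and 25209.35 FPKM (FL12) after CCl4. The FPKM of a rat summed to between 272110 and 340467, and the read number of each rat is not given in the sources used here, so the reads behind a value are unknown. The most common value above 0 among the 114 U6 small nuclear RNA genes, taken as 1 read, put the relative depth at 1, 0.656 and 0.84 in CL5, CL6 and CL7 and at 0.677, 0.75 and 0.677 in FL2, FL5 and FL12.

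Of the 10 genes, 1 was higher in the FL group with an adjusted p below 0.05 and a change of 2-fold or more (Eda2r, limma), beside 9.29% of all genes tested. By the same limits 0 of the 10 were lower, beside 0.935% of all genes, and at an unadjusted p under 0.05 limma gave 4 higher, beside 31.5% of all genes, and 0 lower, beside 4.04%. With the adjusted p alone and any fold, 2 of 10 were higher (Eda2r and Btg2), beside 16.9% of all genes, and 0 were lower, beside 1.94%. Every FL rat lay above every CL rat in 4 of 10, beside 35.7% of all genes, and below in 0, beside 4.78%. These shares are near those of all genes, so the counts are not a result about p53 targets as a group. The median log2 fold change of the 10 genes was 0.48, against 0.29 over all genes tested, and it was 0.26 against 0.08 after median scaling and 0.20 against -0.04 after quantile normalization. All fold changes compare FL with CL on the log2(FPKM + 0.1) scale, which understates the change of genes with low values.

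**Figure D1:**
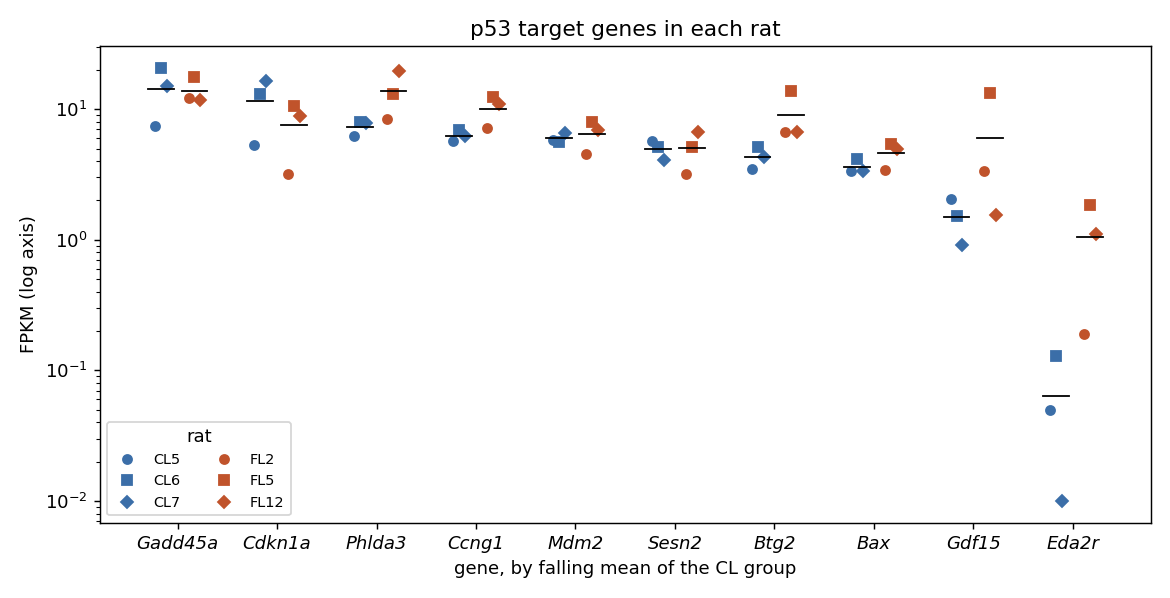
FPKM of the 10 p53 target genes (log axis) in each of 3 CL rats (blue) and 3 FL rats (orange), with a bar at the mean of each group and the genes ordered by their CL mean. Every FL rat lies above every CL rat for Phlda3, Ccng1, Btg2 and Eda2r, and the groups overlap for the other genes.

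By mean level in the CL group the order ran from Gadd45a (14.4 ± 6.62 FPKM, SD, n = 3) and Cdkn1a (11.6 ± 5.74) through Phlda3 (7.33 ± 0.949), Ccng1 (6.27 ± 0.606), Mdm2 (6.0 ± 0.517), Sesn2 (4.97 ± 0.802), Btg2 (4.33 ± 0.83) and Bax (3.64 ± 0.456) to Gdf15 (1.5 ± 0.58) and Eda2r (0.0633 ± 0.0611). Most neighbours in that order differed by less than their spread, while Eda2r lay below every other gene in each CL rat. In the FL group Gadd45a (13.9 ± 3.31) and Phlda3 (13.8 ± 5.7) stood at the top and Eda2r (1.05 ± 0.831) at the bottom.

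Among the regulators, Mdm2 (ENSRNOG00000006304, chromosome 7), the ubiquitin ligase that marks p53 for degradation, measured 5.76 (CL5), 5.64 (CL6) and 6.59 FPKM (CL7) in controls and 4.57 (FL2), 7.99 (FL5) and 6.96 FPKM (FL12) after CCl4. FL2 was the lowest and FL5 the highest of all rats, so the groups overlapped. The log2 fold change of Mdm2 was 0.08 ± 0.21 (SE, adjusted p = 0.8, limma), with a 95% interval of -0.39 to 0.56 that leaves out a 2-fold change in either direction, and its sign turned with scaling.

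Of the genes that halt growth, none passed both limits (limma). Cdkn1a (ENSRNOG00000000521, chromosome 20), which encodes p21, an inhibitor of cyclin-dependent kinases, measured 5.29 (CL5), 13.06 (CL6) and 16.50 FPKM (CL7) in controls and 3.18 (FL2), 10.54 (FL5) and 8.85 FPKM (FL12) after CCl4. Each group held 1 low rat, CL5 and FL2, and the FL values lay within or below the CL range. Its log2 fold change was -0.64 ± 0.52 (SE, adjusted p = 0.411, limma), and the 95% interval of -1.85 to 0.57 allows a fall of more than 2-fold but not a 2-fold rise. In the 14 alternatives it lay between -1.12 and -0.11 and was never called.

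Btg2 (ENSRNOG00000003300, chromosome 13), an antiproliferative gene that recruits the deadenylation of mRNA, measured 3.50 (CL5), 5.16 (CL6) and 4.32 FPKM (CL7) in controls and 6.71 (FL2), 13.74 (FL5) and 6.72 FPKM (FL12) after CCl4. Every FL rat was above every CL rat, with FL5 far above the rest. The log2 fold change of 0.98 ± 0.29 (SE, 95% interval 0.32 to 1.64) passed at an adjusted p of 0.0494 (limma) and lay just short of 2-fold, so Btg2 was not called. The adjusted p ran from 0.0429 to 0.174 over the alternatives, and the gene was called in 1 of 14, without FL2, while without FL5 the log2 fold change was 0.64.

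Ccng1 (ENSRNOG00000003256, chromosome 10) encodes cyclin G1, a partner of protein phosphatase 2A, and measured 5.68 (CL5), 6.89 (CL6) and 6.23 FPKM (CL7) in controls and 7.24 (FL2), 12.29 (FL5) and 10.90 FPKM (FL12) after CCl4. All FL rats were above the CL rats, FL2 only just. A log2 fold change of 0.66 ± 0.20 (SE, 95% interval 0.19 to 1.12) missed the threshold at an adjusted p of 0.0558 (limma), and without FL2 the adjusted p was 0.00841 at a change still under 2-fold (range over alternatives 0.00841 to 0.201).

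Gadd45a (ENSRNOG00000005615, chromosome 4), a stress sensor that acts on growth arrest and DNA repair, measured 7.49 (CL5), 20.68 (CL6) and 15.13 FPKM (CL7) in controls and 12.15 (FL2), 17.71 (FL5) and 11.81 FPKM (FL12) after CCl4. The CL rats spanned the whole FL range. Its log2 fold change was 0.04 ± 0.35 (SE, adjusted p = 0.949, limma; 95% interval -0.76 to 0.84), and it became -0.37 without CL5.

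Among the genes of cell death, Eda2r (ENSRNOG00000013018, chromosome X), a receptor of the tumour necrosis factor family that binds ectodysplasin A2, measured 0.05 (CL5), 0.13 (CL6) and 0.01 FPKM (CL7) in controls and 0.19 (FL2), 1.85 (FL5) and 1.10 FPKM (FL12) after CCl4. FL5 and FL12 stood well above all other rats, while FL2 was close to CL6, and the CL values lie near the limit of the 2 decimals deposited. Eda2r rose by 2.49 ± 0.69 (SE, 95% interval 0.90 to 4.08) on the log2 scale, at an adjusted p of 0.0418 (limma), the only call among the 10 genes. The size of that change moved with the pseudocount, being 0.86 with a pseudocount of 1 and 3.75 with 0.01. The call held in 3 of 13 alternatives and was lost with a pseudocount of 1, without a filter, with either scaling, without the trend and without any single rat other than FL2 (adjusted p from 0.00559 to 0.139). Its ligand gene Eda measured between 0.06 and 0.24 FPKM in the 6 rats, with overlapping groups.

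Phlda3 (ENSRNOG00000009068, chromosome 13), which represses the kinase Akt by competing for membrane lipids, measured 6.24 (CL5), 7.94 (CL6) and 7.82 FPKM (CL7) in controls and 8.42 (FL2), 13.09 (FL5) and 19.77 FPKM (FL12) after CCl4. The groups did not overlap, although FL2 was close to CL6 and CL7. The log2 fold change was 0.82 ± 0.28 (SE, 95% interval 0.17 to 1.47) at an adjusted p of 0.0779 (limma). Without FL2 it was 1.13 at an adjusted p of 0.0136, the lowest of the alternatives (range up to 0.212), and Phlda3 was called there, while without FL12 it was 0.52 at an adjusted p of 0.173.

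Bax (ENSRNOG00000020876, chromosome 1), which opens the outer mitochondrial membrane in apoptosis, measured 3.38 (CL5), 4.17 (CL6) and 3.38 FPKM (CL7) in controls and 3.41 (FL2), 5.44 (FL5) and 4.94 FPKM (FL12) after CCl4. FL5 and FL12 were above all CL rats, and FL2 lay among them. A log2 fold change of 0.31 ± 0.20 (SE, adjusted p = 0.298, limma) had a 95% interval of -0.15 to 0.76, which leaves out a 2-fold rise, and it was -0.02 with quantile normalization.

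The remaining pair belongs to stress signalling. Gdf15 (ENSRNOG00000019661, chromosome 16), a secreted stress hormone that lowers food intake, measured 2.07 (CL5), 1.51 (CL6) and 0.91 FPKM (CL7) in controls and 3.35 (FL2), 13.24 (FL5) and 1.56 FPKM (FL12) after CCl4. FL5 alone was far above the other rats, and FL12 lay inside the CL range. The log2 fold change of 1.48 ± 0.68 (SE, adjusted p = 0.159, limma) had a 95% interval of -0.09 to 3.04. That change was 0.65 without FL5 and 2.16 without FL12, where the adjusted p was the lowest of the alternatives (0.0711, limma).

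Sesn2 (ENSRNOG00000042785, chromosome 5), a leucine sensor that restrains the kinase complex mTORC1, measured 5.66 (CL5), 5.16 (CL6) and 4.09 FPKM (CL7) in controls and 3.17 (FL2), 5.14 (FL5) and 6.74 FPKM (FL12) after CCl4. The FL rats lay on both sides of the CL rats. Its log2 fold change was -0.04 ± 0.27 (SE, adjusted p = 0.932, limma), with a 95% interval of -0.65 to 0.58.

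**Figure D2:**
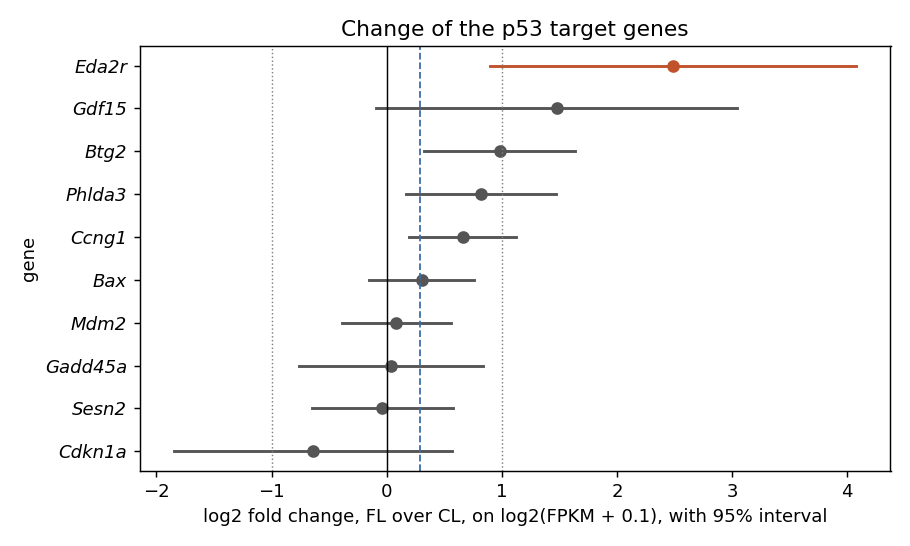
Log2 fold change of each p53 target gene, FL over CL on the log2(FPKM + 0.1) scale, with its 95% interval from limma. Dotted lines mark 2-fold changes and the dashed line the median of all genes tested (0.29), and Eda2r (orange, 2.49) is the gene that was called.

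The FL rats were not alike in these genes. FL2 was the lowest FL rat in 8 of the 10 genes, as in 51.2% of all genes tested, and FL5 was the highest in 8 of 10, as in 35.9% of all genes; no test was run on this. The same rats differed in the markers of other cells. The summed FPKM of 6 stellate cell and myofibroblast markers was 66.3, 70.6 and 64.9 in CL5, CL6 and CL7 and 179, 486 and 450 in FL2, FL5 and FL12, with 4 of 6 called higher (Col1a1, Col3a1, Des and Pdgfrb), beside 9.29% of all genes, and Col3a1 the most abundant. For 7 genes of dividing cells the sums were 2.87, 5.52 and 3.57 in the CL rats and 4.98, 21.3 and 17.8 in FL2, FL5 and FL12, with 2 of 7 called higher (Birc5 and Mki67), beside 9.29% of all genes, and Mki67 the most abundant. FL2 lay within the range of the CL rats in the summed genes of division. The part of these cells in the values of the p53 targets was not tested, and in bulk tissue fewer cells of a type and less RNA per cell cannot be told apart.

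Macrophage markers summed to 93.2, 88.7 and 91.6 FPKM in the CL rats and to 218, 194 and 119 FPKM in FL2, FL5 and FL12, with 3 of 6 called higher (Cd68, Marco and Csf1r), beside 9.29% of all genes, and Clec4f the most abundant gene in the CL rats. Clec4f had a log2 fold change of -0.02 (adjusted p = 0.974, limma) with overlapping groups. The call of Csf1r was lost with median scaling, with quantile normalization and without FL5. Of 4 endothelial markers measured 1 was called higher, beside the same share (Vwf, a call lost with either scaling and without any single rat other than FL2), and Stab2 passed the adjusted p (0.75, adjusted p = 0.0143, limma) with every FL rat above every CL rat. For Stab2 the adjusted p rose to at most 0.0576 over the alternatives (limma). The call of Vwf was also lost with a pseudocount of 1 and without the trend. Kdr, the most abundant in the CL group, had a log2 fold change of -0.21 and Lyve1, the most abundant in the FL group, one of 0.30, neither past the threshold. None of 5 hepatocyte, 4 cholangiocyte and 5 lymphocyte markers tested was called (limma), beside 9.29% of all genes higher and 0.935% lower, and at an unadjusted p under 0.05 there were 1, 0 and 1 higher and 0 lower, beside 31.5% and 4.04%. In the hepatocyte list the summed FPKM, most of it Alb, was 41226, 38834 and 39343 in the CL rats. In the FL rats it was 29584, 32580 and 31104. Alb, Ttr and Hnf4a had every FL rat below every CL rat, 3 of 5 beside 4.78% of all genes. Apoa1 had every FL rat above every CL rat, 1 of 5 beside 35.7% of all genes, and Cps1 overlapped. The interval of Alb was wide (-2.63 to 1.87, SE 0.98) although its groups lay apart, at 32272 ± 1010 and 24803 ± 572 FPKM (SD). That SE reflects the spread that limma expects at such a level more than the spread of the Alb values. The missing call of Alb therefore does not show a lack of change. Apoa1 was the hepatocyte marker higher at the unadjusted limit (0.73). Epcam was the most abundant cholangiocyte marker, at 4.22, 6.02 and 4.47 FPKM in the CL rats and 4.27, 6.81 and 7.80 FPKM in the FL rats. Of the lymphocyte markers, Nkg7 had the highest mean in the CL group and Cd8a in the FL group, Cd8a at 0.22 to 0.79 FPKM in the CL rats and 0.43 to 2.57 FPKM in the FL rats.

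Of 33 other textbook p53 targets, 30 had a row and 28 were tested. Higher in the FL group were 2, Plk3 and Dram1, beside 9.29% of all genes, and 0 were lower, beside 0.935%, while limma gave 9 higher and 1 lower at an unadjusted p under 0.05, a limit that 31.5% and 4.04% of all genes passed. Their median log2 fold change of 0.34 was close to the 0.29 of all genes. Dram1, a lysosomal protein that promotes autophagy, measured 0.23, 0.46 and 0.59 FPKM in the CL rats and 1.66, 1.78 and 1.42 FPKM in the FL rats. Its groups lay far apart, with a log2 fold change of 1.77 ± 0.31 (SE, adjusted p = 0.00969, limma), and the call held in 12 of 14 alternatives, being lost with a pseudocount of 1 and with quantile normalization. Plk3, a stress-responsive kinase, measured 0.73, 1.34 and 0.83 FPKM in the CL rats and 1.82, 2.69 and 1.97 FPKM in the FL rats. All FL rats were above the CL rats, at 1.11 ± 0.26 (SE, adjusted p = 0.0267, limma), and the call held in 7 of 14 alternatives, being lost with a pseudocount of 1, with either scaling and without CL5, CL7, FL5 or FL12.

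Further targets were measured without a call. Zmat3, an RNA-binding protein, measured between 0.91 and 1.16 FPKM in the CL rats and 1.14, 2.75 and 2.64 FPKM in the FL rats, where FL2 again lay among the CL rats. Ppm1d, a phosphatase that ends the p53 response, had a log2 fold change of 0.39 ± 0.18 (SE), Tp53inp1 one of 0.38 ± 0.27 and Sesn1 one of -0.25 ± 0.19, with adjusted p-values of 0.155, 0.344 and 0.358 (limma). At an adjusted p under 0.05 but under 2-fold were the death receptor gene Fas (0.83), Apaf1 (0.75) and Pcna (0.75), which were higher, and the repair gene Xpc (-0.63), which was lower. In the alternatives the adjusted p reached 0.128 for Fas, 0.317 for Apaf1, 0.174 for Pcna and 0.125 for Xpc (limma). The log2 fold changes nearest to no change were 0.44, 0.26, 0.43 and -0.49 in that order.

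Of 22 genes of the p53 family and its regulators 18 were tested, and 1 was called higher, beside 9.29% of all genes. With the adjusted p alone 6 of 18 were higher, beside 16.9%, and at an unadjusted p under 0.05 there were 11, beside 31.5%. By these limits 0 were lower, beside 0.935%, 1.94% and 4.04% of all genes. In 11 of 18 every FL rat lay above every CL rat, beside 35.7%, and no test was run on these counts. Chek2, a kinase of the DNA damage response, measured 0.44, 0.59 and 0.49 FPKM in the CL rats and 0.73, 1.47 and 1.67 FPKM in the FL rats. Its log2 fold change was 1.13 ± 0.32 (SE, adjusted p = 0.0454, limma), a call that held in 3 of 13 alternatives. The call was lost with a pseudocount of 1, without a filter, with either scaling, without the trend and without any single rat other than FL2. Rpl5 and Rpl11, ribosomal proteins that can bind Mdm2, passed at 0.74 each without reaching 2-fold, as did Atm (0.60), Kat5 (0.57) and Ep300 (0.41). Over the alternatives the adjusted p reached 0.442 for Atm, 0.321 for Kat5 and 0.372 for Ep300 (limma). Their log2 fold changes fell as low as 0.17, 0.26 and 0.15. The adjusted p of Rpl5 reached 0.0563 and that of Rpl11 0.0345 (limma). Mdm4, the partner of Mdm2, had a log2 fold change of 0.08 (95% interval -0.20 to 0.37).

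**Figure D3:**
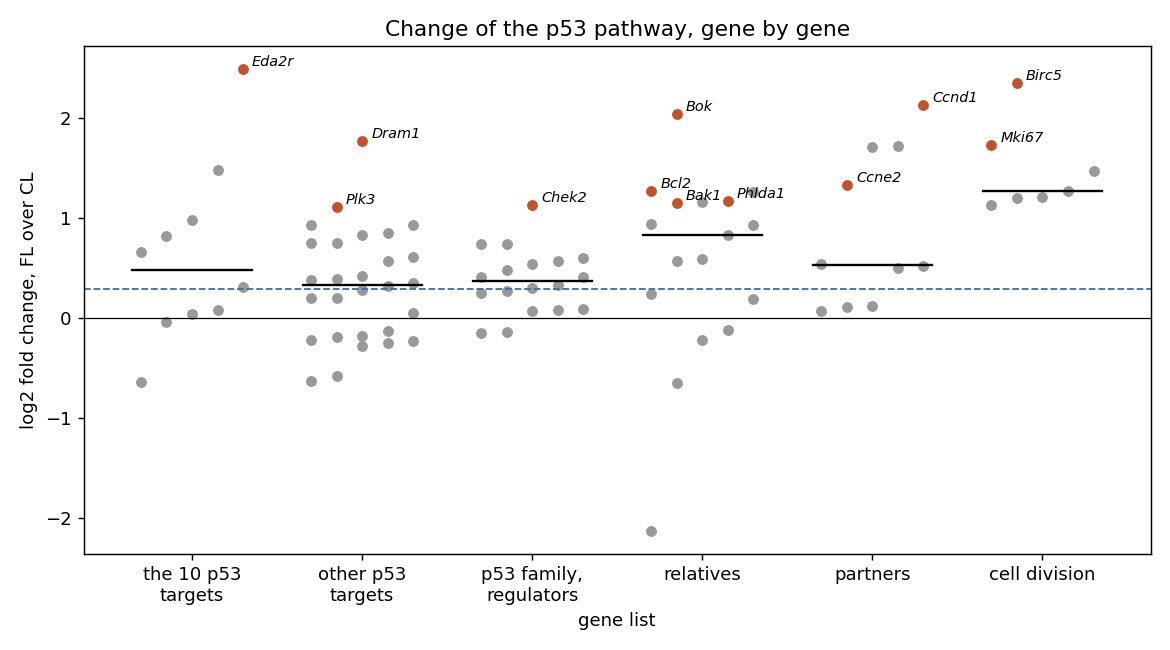
Log2 fold change, FL over CL, of each gene tested in 6 lists, with the called genes named in orange and a bar at the median of each list. The dashed line is the median of all genes tested (0.29), and the medians run from 0.34 for other p53 targets to 1.27 for genes of cell division.

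Relatives of the 10 genes in their families gave 4 calls among 17 tested, all higher, beside 9.29% of all genes. Bok, a relative of Bax, measured 0.24, 0.39 and 0.17 FPKM in the CL rats and 0.92, 1.53 and 1.80 FPKM in the FL rats. It rose by 2.04 ± 0.34 (SE, adjusted p = 0.00855, limma) and the call held in 12 of 13 alternatives. Bak1, which acts like Bax, rose by 1.15 (adjusted p = 0.0112, limma, 10 of 14 alternatives), Phlda1 by 1.17 (adjusted p = 0.0255, 7 of 14) and the antiapoptotic Bcl2 by 1.27 (adjusted p = 0.0487, 3 of 13). Every FL rat lay above every CL rat in 8 of the 17, the 4 called among them, beside 35.7% of all genes. Every FL rat lay below every CL rat in 1, beside 4.78%. With a pseudocount of 1 all 4 calls were lost, the only loss of Bok. With median scaling and with quantile normalization the calls of Bak1, Phlda1 and Bcl2 were lost and that of Bok was kept. That of Bcl2 was lost without a filter and with a robust prior too. The call of Bak1 was also lost without FL5, that of Phlda1 without CL5, CL7, FL2 or FL5, and that of Bcl2 without any single rat other than FL2.

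Gadd45g, a relative of Gadd45a, measured 2.14 (CL5), 26.39 (CL6) and 38.22 FPKM (CL7) in controls and 3.44 (FL2), 2.24 (FL5) and 3.16 FPKM (FL12) after CCl4. CL5 lay with the FL rats, and the log2 fold change of -2.13 (95% interval -4.27 to 0.01) missed the threshold (adjusted p = 0.142, limma). Gadd45b measured 4.91, 1.61 and 1.52 FPKM in the CL rats and 4.80, 11.84 and 3.19 FPKM in the FL rats, which overlapped through CL5. Sesn3 passed at 0.94 and Cdkn1b, the inhibitor p27, at 0.59, both under 2-fold, as did the antiproliferative Tob1 (0.93), which was higher, and Tob2 (-0.65), which was lower with every FL rat below every CL rat. The adjusted p reached 0.074 for Sesn3, 0.106 for Cdkn1b, 0.146 for Tob1 and 0.0559 for Tob2 over the alternatives (limma). The log2 fold change fell as low as 0.62 for Sesn3 and 0.37 for Cdkn1b. Log2 fold changes of 0.83 for Cdkn1c, 0.24 for Bcl2l1, 0.19 for Ccng2 and -0.22 for Btg1 missed the threshold.

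Among 10 binding partners tested, 2 cyclins were called higher, Ccnd1 and Ccne2, whose kinases p21 inhibits, beside 9.29% of all genes. With the adjusted p alone 5 of 10 were higher, beside 16.9%, and at an unadjusted p under 0.05 there were 7 of 10, beside 31.5%. Ccnd1 measured 3.49, 3.11 and 3.35 FPKM in the CL rats and 5.35, 23.15 and 26.26 FPKM in the FL rats, with FL2 far below FL5 and FL12. The change was 2.13 ± 0.53 on the log2 scale (SE, adjusted p = 0.0303, limma), and the call held in 5 of 14 alternatives, while that of Ccne2 (1.33, adjusted p = 0.0484) held in 3 of 13. Of the genes of dividing cells, Birc5 rose by 2.35 (adjusted p = 0.0187, limma, 9 of 14 alternatives) and Mki67 by 1.73 (adjusted p = 0.0478, 3 of 14). The calls of Ccnd1, Ccne2 and Mki67 were lost with median scaling, with quantile normalization and without any single rat other than FL2. Each of these calls was also lost without a filter, and those of Ccne2 and Mki67 with a pseudocount of 1. That of Birc5 was lost with quantile normalization and without CL5, CL7, FL5 or FL12.

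Gdf15 and Sesn2 are also targets of Atf4, the transcription factor of the integrated stress response, and Btg2 and Gadd45a answer to growth and stress signals. None of 10 genes of the Atf4 list was called (limma; 4 higher and 0 lower at an unadjusted p under 0.05, beside 31.5% and 4.04% of all genes), with Atf4 itself at 0.11 (95% interval -0.27 to 0.50) and Ddit3 at 0.65 (-0.20 to 1.51). The summed list was 407, 454 and 391 FPKM in the CL rats and 440 (FL2), 230 (FL5) and 541 FPKM (FL12) in the FL rats, so FL5, the highest rat in Gdf15, was the lowest there. Most of that sum was Atf5, at 143.89 FPKM in FL5 and 319.13 to 426.33 FPKM in the other rats, and the list was mixed. FL5 was the lowest FL rat in Atf5, Asns, Phgdh, Psat1 and Trib3 and the highest of all rats in Atf3 (2.18 FPKM), Ddit3 (7.51 FPKM) and Ppp1r15a (7.38 FPKM). None of 6 immediate early genes tested was called either (1 higher and 0 lower at an unadjusted p under 0.05), and the sum over the 7 with a row was 35.7 (CL5), 70.2 (CL6) and 53.2 FPKM (CL7) in controls and 70.8 (FL2), 160 (FL5) and 44.6 FPKM (FL12) after CCl4. FL5, the highest FL rat in 8 of the 10 p53 targets, Btg2, Gadd45a and Gdf15 among them, was the highest there, with Egr1 at 49.00 FPKM. Fos was at 0.53 FPKM in FL5 and 0.50 FPKM in FL12, while Ier3 was at 10.50 FPKM in FL5 and 15.31 FPKM in FL2. The part of these signals in the levels of the p53 targets was not tested.

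The sequences upstream of these genes were searched because p53 acts through a sequence made of a pair of half-sites. RefSeq promoter windows (GRCr8, 250 bases before to 50 after the start) were matched by symbol for 9 of the 10 genes, in 10 windows. The p53 half-site, searched without a mismatch and read alike on both strands, lay in 3 windows, those of Cdkn1a, Ccng1 and Gadd45a, and in 7.98% of all 33469 windows. A first search for a full site, 2 exact half-sites with 0 to 13 bases between them, found 0 among the 10 windows and 20 among all (0.0598%). A second search, for half-sites side by side with at most 1 mismatch over both, was chosen after the sequences of these genes had been read, so its 2 matches, in Cdkn1a and Ccng1, are a description and cannot be set against the 24 windows (0.0717%) that it found in all. The stretches below hold those matches and the half-site of Gadd45a in capitals, 5′ to 3′ on the strand of the gene. They lie at chr20:7150691-7150790 (plus strand), chr10:25685027-25685126 (minus strand) and chr4:97486800-97486899 (minus strand).
Cdkn1a: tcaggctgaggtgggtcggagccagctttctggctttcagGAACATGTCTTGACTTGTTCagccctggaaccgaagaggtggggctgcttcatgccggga
Ccng1: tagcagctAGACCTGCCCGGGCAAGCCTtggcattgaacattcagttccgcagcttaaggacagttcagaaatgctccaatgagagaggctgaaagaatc
Gadd45a: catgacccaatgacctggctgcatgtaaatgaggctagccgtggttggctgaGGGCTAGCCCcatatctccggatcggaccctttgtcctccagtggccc
The match of Cdkn1a begins 201 bases before the start and that of Ccng1 242 bases before it, and the log2 fold changes of these genes had opposite signs, neither of them called. Among other p53 targets, 3 of 25 genes with a window held a half-site and 0 a full site by either search.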

How the data were processed

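RNA of 6 rat livers, grouped by their labels, was compared between the FL and CL groups. The authors trimmed and aligned the reads (TopHat2), counted uniquely mapped reads and deposited FPKM per gene with 2 decimals. The submitters' notes name GRCh38, whereas the gene identifiers are those of the rat. FPKM are not counts, so limma with a trend was run on log2(FPKM + 0.1) in place of the edgeR of the authors, over genes with a mean of at least 0.1, with Benjamini-Hochberg adjustment over all of them. A gene was called at an adjusted p under 0.05 and at least 2-fold. Intervals are 95% from the moderated SE. The fit was tested on simulated data. In 15 pairs of rats 0.99% to 2.87% of genes had identical values, and 2 further columns of values were not used.

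The 10 genes and the lists were chosen with earlier results of these data known. Named genes are the 10, up to 6 called genes of each list by size of change, the most abundant gene of each cell type list and a further set chosen by name. Some genes of the lists are not reported here. Genes named beyond this passed the adjusted p alone or were singled out after their values were seen. The second search of promoters and the comparison of CL5 with CL6 and CL7 were chosen after the data were seen. Other settings tried were pseudocounts of 1 and 0.01, a filter at a mean of 1 or none, median scaling, quantile normalization, a constant or a robust prior in limma, calls by adjusted p alone, and each rat left out. The programs were R 4.3.3, limma 3.58.1, Python 3.11.15, numpy 2.4.6, pandas 2.3.3 and matplotlib 3.10.9.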

Additional observations from a re-analysis of the deposited data

How the results depend on the processing

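Of the 10 genes, 1 was called higher. The count was 0 with a pseudocount of 1, without a filter, with a mean of at least 1 FPKM (which leaves Eda2r out), with median scaling, with quantile normalization and without the trend, 2 with no limit on the fold change, and 0 to 3 when a rat was left out, the 3 being Btg2, Eda2r and Phlda3 without FL2. Other p53 targets called higher numbered 0 with a pseudocount of 1 and with quantile normalization, 1 with median scaling, 5 with no limit on the fold change and 1 to 5 without a rat (5 without FL2), and those called lower 1 with no limit on the fold change. Regulators called numbered 0 with a pseudocount of 1, without a filter, with a mean of at least 1 FPKM, with either scaling and without the trend, 6 with no limit on the fold change and 0 to 1 without a rat. The log2 fold change turned for Mdm2 (-0.14 with median scaling, -0.20 with quantile normalization, -0.08 to 0.31 without a rat), Bax (-0.02 with quantile normalization), Sesn2 (-0.28 to 0.25 without a rat) and Gadd45a (-0.19 with median scaling, -0.15 with quantile normalization, -0.37 to 0.35 without a rat), none of which was called. The cause was not tested.

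Over all genes 1381 were called higher and 139 lower, while median scaling gave 826 higher and 181 lower, and quantile normalization 453 higher and 231 lower. The number called higher was 462 with a pseudocount of 1, 854 of 10535 tested when genes averaging below 1 FPKM were left out, 682 without FL5, 717 without CL7, 895 without FL12 and 1833 without FL2, so the shares set beside the counts of p53 targets move with these choices too. No paired analysis was run, because the rats were divided between the groups at random and the labels name no pairs. With no read number given for each rat, values near 0.1 FPKM, such as those of Eda2r in the CL rats, may rest on few reads. With 3 rats per group, a p that misses the threshold does not show that a gene did not differ.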

Other observations

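CL5 stood below CL6 and CL7 in a few genes that include Cdkn1a and Gadd45a. This was looked at after the values of both had been seen, with 1 measure replaced by another on the way, and is a description with no test. The lower of CL6 and CL7 was 2.47 times CL5 for Cdkn1a and 2.02 times CL5 for Gadd45a, ranks 40 and 69 of the 10158 protein-coding genes averaging 1 FPKM or more, of which 73 (0.719%) were at least 2 times CL5 in both. Among the 10 genes furthest apart in this way were Cish, an inhibitor of cytokine signalling (0.74, 11.18 and 10.39 FPKM in CL5, CL6 and CL7), the hepatocyte transcription factor Onecut1 (2.14, 26.20 and 26.03 FPKM), the phosphatase Dusp1 (5.21, 45.67 and 43.14 FPKM) and Gadd45g. Genes higher in CL5, such as Gadd45b (4.91, 1.61 and 1.52 FPKM), were not counted, and no such count is given for CL6 or CL7.

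Of 12 clock genes, 6 were called higher in the FL group (Dbp, Per3, Ciart, Nr1d1, Per2 and Nr1d2) and 3 lower (Arntl, Npas2 and Cry1), beside 9.29% and 0.935% of all genes. Ciart passed the filter on low values through the FL rats alone, with a CL mean of 0.0267 FPKM. Dbp, a transcription factor with a strong daily rhythm, measured 0.46 (CL5), 0.91 (CL6) and 0.81 FPKM (CL7) in controls and 25.61 (FL2), 27.10 (FL5) and 31.75 FPKM (FL12) after CCl4, a log2 fold change of 5.13 ± 0.23 (SE, adjusted p = 0.000126, limma). All FL rats lay far above the CL rats, and the call held in 14 of 14 alternatives. The time of day at which the rats were killed is not given in the sources used here, and its part in the levels of the p53 targets was not tested.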
